A study of Mus musculus with 4 samples.

Results

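The genes described here encode the voltage-gated sodium and calcium channels: every protein-coding gene of the mm10 GENCODE annotation whose symbol begins with Cacna, Cacnb or Cacng, or with Scn followed by a number and a or b. The rule used names alone and took 40 of 21938 protein-coding genes, 14 for sodium and 26 for calcium channels. Histone H3 trimethylated at lysine 4 (H3K4me3), which marks active and poised promoters, had been mapped by chromatin immunoprecipitation and sequencing in the left cortex of the cerebrum of 2-month-old B6CASTF1/J females, a first-generation cross of C57BL/6J and CAST/EiJ. The biological replicates were pool J (number 1) and pool I (number 2), each of 4 biosamples sequenced as 2 technical libraries, with no treatment named for either. Since 1 peak list stands for both libraries of a pool, each pool gives 1 value per gene and no p-value between pools can be had. The labels do not state that the pools came from separate animals, and the spread between them may be technical. Cortex is a mixture of cells, and in such bulk tissue a mark carried by fewer cells and a weaker mark in each cell cannot be told apart.

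Voltage-gated channels open when the membrane depolarizes. In each, 1 large pore-forming protein (alpha subunit) carries the ion and the voltage sensor, and smaller accessory subunits set trafficking, gating and anchoring. Sodium channels start and carry the action potential along the axon, while calcium channels turn depolarization into transmitter release, pacemaking, contraction and signals to the nucleus. Different genes serve brain, skeletal muscle, heart, retina and the sensory neurons of peripheral ganglia, and the classes used here follow that textbook division. Several gamma subunit genes (Cacng) encode transmembrane AMPA receptor regulatory proteins, which accompany glutamate receptors at synapses more than they accompany calcium channels.

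A gene was counted as marked when a replicated peak, called on both pools, reached, with at least 1 base, to within 1000 bases of one of its annotated transcript starts. By that measure 33 of the 40 channel genes were marked, beside 65.2% of all protein-coding genes. The same 33 genes were marked in either single-pool list, beside 63.9% (pool J) and 64.8% (pool I) of all genes. The 7 without a mark were Cacna1f, Cacna1s, Cacng1, Scn4a, Scn7a, Scn10a and Scn11a, in the replicated list and in each pool. These encode channels of the retina (Cacna1f), of skeletal muscle (Cacna1s, Cacng1, Scn4a), of peripheral sensory neurons (Scn10a, Scn11a) and a salt-sensing channel of glia and peripheral tissues (Scn7a). Each of the 33 marked genes had a start-window peak with a deposited −log10 q of at least 10, a limit that 95.7% of all marked genes met.

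Sequence just upstream of the start differed widely among members. The 4 stretches of 200 bases that follow end at the base before a coding start, the one with the highest peak where the gene is marked. They were read from the mm10 (GRCm38) genome at GENCODE M21 starts, and have each CpG dinucleotide in capitals. They are shown because they pair a brain sodium channel that is marked with few CpG (Scn2a), a brain calcium channel and a synaptic gamma subunit that are marked with many (Cacna1b, Cacng2), and a skeletal muscle gene with no mark (Cacna1s).
Scn2a (chr2:65620571-65620770, plus strand): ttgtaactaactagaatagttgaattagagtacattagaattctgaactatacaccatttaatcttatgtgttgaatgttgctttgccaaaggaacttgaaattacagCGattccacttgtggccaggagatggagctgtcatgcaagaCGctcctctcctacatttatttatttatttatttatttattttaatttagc
Cacna1b (chr2:24763153-24763352, minus strand): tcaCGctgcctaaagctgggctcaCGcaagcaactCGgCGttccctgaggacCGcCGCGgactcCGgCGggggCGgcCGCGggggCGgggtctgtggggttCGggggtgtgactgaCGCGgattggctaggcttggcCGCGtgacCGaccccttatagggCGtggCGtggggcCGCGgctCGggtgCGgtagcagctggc
Cacng2 (chr15:78120029-78120228, minus strand): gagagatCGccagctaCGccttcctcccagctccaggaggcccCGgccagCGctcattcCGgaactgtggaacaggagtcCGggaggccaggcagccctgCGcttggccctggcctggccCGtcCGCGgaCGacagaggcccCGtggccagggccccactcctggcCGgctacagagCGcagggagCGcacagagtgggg
Cacna1s (chr1:136052550-136052749, plus strand): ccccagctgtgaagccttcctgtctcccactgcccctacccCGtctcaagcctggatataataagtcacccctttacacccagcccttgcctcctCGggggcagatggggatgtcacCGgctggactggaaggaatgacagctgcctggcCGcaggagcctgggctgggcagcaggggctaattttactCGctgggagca

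The Scn2a stretch held 2 CpG and 32.5% G and C, against 25 CpG and 72.5% for Cacna1b and 15 CpG and 72.0% for Cacng2. Each of these genes carried a peak at that start. The stretch of Cacna1s held 5 CpG and 61.5% G and C, and that gene had no peak in its start windows.

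Beside presence, 2 quantities describe each mark. Width is the length of the widest H3K4me3 domain at the gene's starts, with peaks up to 1000 bases apart joined, and enrichment is the authors' value for the highest peak at the starts, a fold over control. The channel domains were wide for their height. Their median width was 3363 bases (range 589 to 6055), against 2124 for all marked genes, and 27 of the 33 were above that genome-wide median. Of the 33, 20 lay in the widest 25.0% of all marked genes. Their median enrichment was 18.8-fold (range 5.38 to 32.1), against 20.8-fold for all marked genes, and 10 of 33 were above that median. A single one, Cacnb1, was in the highest 25.0% by enrichment and 9 were in the lowest 25.0%.

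**Figure D1:**
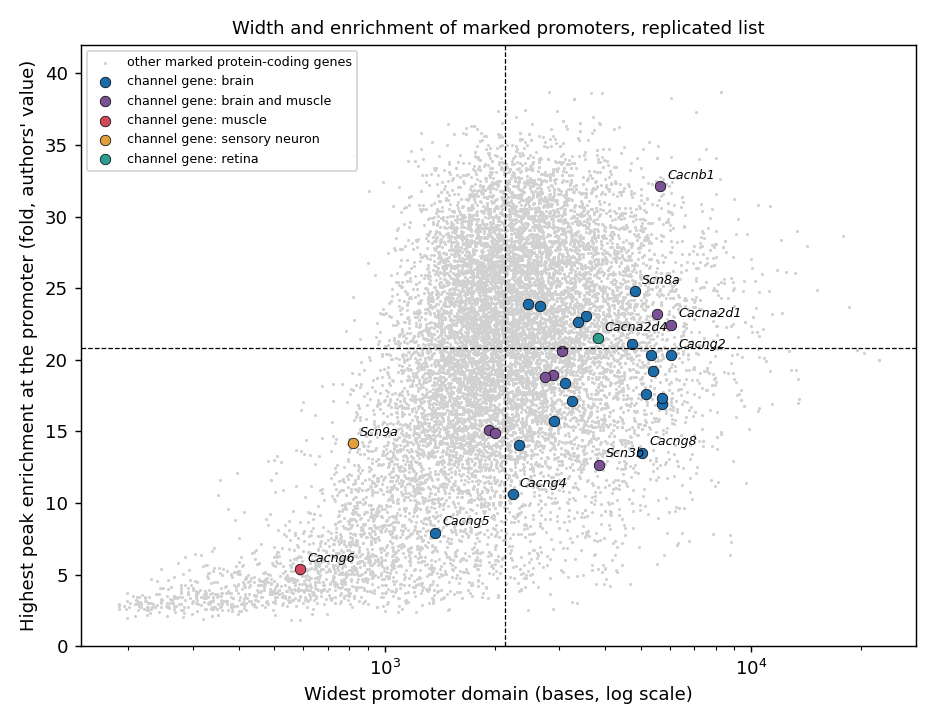
Domain width (bases, log axis) against the authors' enrichment (fold over control) for all marked protein-coding genes (grey) and the marked channel genes (coloured by the tissue class of the channel), replicated list. Dashed lines are the medians of all marked genes, 2124 bases and 20.8-fold; most channel genes sit on the wide side of the first and below the second.

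Domains among the widest 5.0% of all marked genes, 5166 bases or more in the replicated list, were called broad. There were 9 of them among the channels: Cacna1c, Cacna1e, Cacna2d1, Cacna2d3, Cacnb1, Cacnb3, Cacng2, Cacng3 and Scn2b. Broad in the replicated list and in each pool were 6 of these (Cacna1e, Cacna2d1, Cacnb3, Cacng2, Cacng3, Scn2b), beside 3.77% of all marked genes. In Cacnb3 and Scn2b that width was reached only with neighbouring peaks joined. The count of 9 fell to 5 where peaks up to 2500 bases apart were joined. It was 8 with peaks of −log10 q of at least 5 alone, and 7 with those of at least 10. The broad domains of Cacng2, Cacna2d1 and Cacnb1 each also held the start of a non-coding gene on the opposite strand (A730060N03Rik, Gm3510 and Gm11629).

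**Figure D2:**
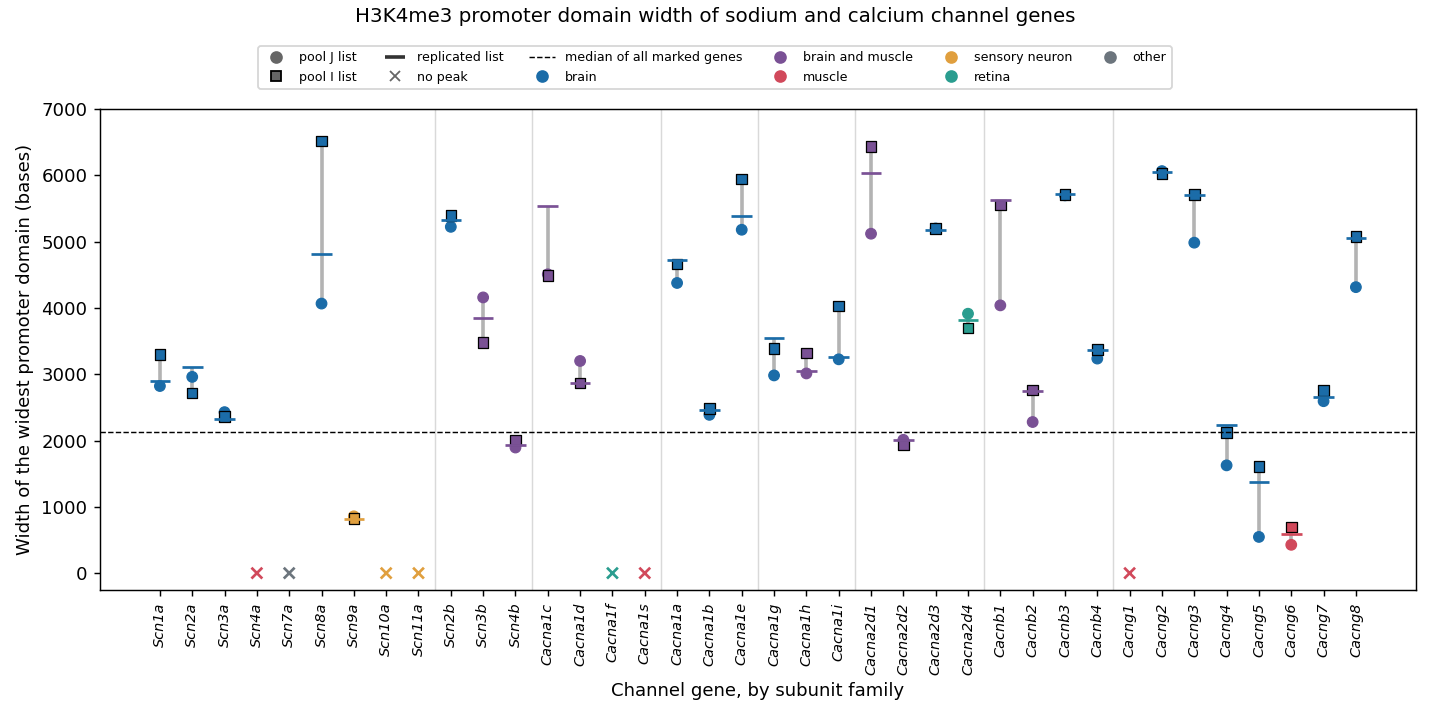
Domain width in bases of each channel gene described by name, by subunit family: circle, pool J; square, pool I; dash, replicated list; cross, no peak. Colours give the tissue class, the dashed line is the median of all marked genes (2124 bases), and the muscle genes are either unmarked or below it.

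Of the 10 pore-forming sodium channel genes, 6 were marked (60.0%, beside 65.2% of all protein-coding genes), of median width 2611 bases and median enrichment 15.0-fold. The 4 brain members were all marked. Scn8a, the main channel of the mature axon initial segment and nodes, had the highest enrichment of these, 22.5-fold in pool J and 26.0-fold in pool I. Its domain was 4067 bases in pool J against 6523 in pool I (mean 5295 ± 1737, SD, n = 2 pools), the second largest fold between pools among brain members. Pool I joined to the domain a separate peak more than 5 kb after the start (chr15:100875327-100875840 in the replicated list, 514 bases, 3.34-fold, and not joined there). Pool J lacked that peak, so the greater width rests on pool I.

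Scn2a, expressed in excitatory neurons and early in axon development, was marked at 2 separate places. At its first start, where the CpG-poor sequence above ends, the peak reached 16.5-fold in pool J and 15.7-fold in pool I. A further coding start 47915 bases downstream lay in a domain of 3112 bases (chr2:65668143-65671254) with 11.9-fold in pool J and 8.23-fold in pool I. The first start was the higher of these in each pool, and the downstream one was the wider. Scn1a, the channel of fast-spiking inhibitory interneurons, also had 2 marked starts, 30776 bases apart. Here the downstream start was the higher, 16.5-fold in pool J and 17.0-fold in pool I, against 11.3-fold and 14.1-fold at the first start. Scn3a, the embryonic brain channel, was marked at 12.6-fold in pool J and 16.6-fold in pool I, with widths of 2429 and 2367 bases (mean 2398 ± 43.8, SD, n = 2 pools).

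Outside the brain class the sodium channel pores were narrow or unmarked. Scn9a, the channel of pain-sensing and sympathetic neurons, had a short peak, 857 bases (pool J) and 824 bases (pool I; mean 840.5 ± 23.3, SD, n = 2 pools), with enrichments of 14.4-fold and 13.9-fold. Scn4a, Scn7a, Scn10a and Scn11a had no peak in any start window. The nearest replicated peak to an Scn4a start was 28519 bases away, at Icam2 (75676 bases in pool J and 75655 bases in pool I, since neither list held that peak), and to the starts of Scn7a and Scn11a it was 149660 and 68859 bases away.

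The sodium channel beta subunits, single-span proteins that tune gating and cell adhesion, were all marked, 4 of 4, of median width 3909.5 bases and median enrichment 17.1-fold. Scn2b was the broad one: 5225 bases in pool J against 5393 in pool I (mean 5309 ± 118.8, SD, n = 2 pools), at 19.2-fold and 20.7-fold. Each list joined 3 peaks into that domain. In the replicated list these were a peak of 2059 bases at the start and intronic ones of 3.13-fold (−log10 q 3.35) and 6.10-fold. The spread of the joined Scn2b width between pools was much smaller than its distance from the genome-wide median. The peak at the start was by itself close to that median (2124 bases), so the breadth rests on the joining. Scn3b measured 4160 bases in pool J against 3482 in pool I, at 12.2-fold and 16.6-fold. Scn4b, whose protein is known from fast-spiking neurons and the heart, was the narrowest, 1895 and 2006 bases (mean 1950.5 ± 78.5, SD, n = 2 pools), below the genome-wide median in each pool (2026 bases in pool J, 2193.5 in pool I).

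Of the 10 pore-forming calcium channel genes, 8 were marked (80.0%, beside 65.2% of all protein-coding genes). All 3 genes of the presynaptic (CaV2) family were among them, of median width 4718 bases and median enrichment 21.1-fold. Cacna1a, the P/Q-type pore of fast transmitter release, had 4378 bases in pool J against 4667 in pool I (mean 4522.5 ± 204.4, SD, n = 2 pools) at 23.7-fold and 19.7-fold. Cacna1b, the N-type pore, had the same enrichment in pool J, 23.7-fold, and 25.5-fold in pool I, over a shorter domain of 2388 and 2483 bases. Cacna1e, the R-type pore, was the widest of the family (chr1:154722041-154727432), 5181 bases in pool J against 5947 in pool I (mean 5564 ± 541.6, SD, n = 2 pools), at 18.4-fold and 19.6-fold. In this family the highest peak and the widest domain belonged to different genes, in each pool.

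Of the L-type (CaV1) family, which couples calcium entry to transcription in neurons and to contraction in muscle, the 2 members used in brain were marked and the muscle and retina members were not. Cacna1c, also the heart pore, measured 4509 bases in pool J against 4489 in pool I (mean 4499 ± 14.1, SD, n = 2 pools), at 22.1-fold and 22.7-fold. In the replicated list its domain was 5534 bases, since 3 peaks were joined there, and it was broad there but in neither single pool. Cacna1d, the pacemaking L-type pore, measured 3201 and 2872 bases at 16.9-fold and 19.9-fold. Cacna1s, the voltage sensor of skeletal muscle contraction, and Cacna1f, the pore of photoreceptor synapses, had a replicated peak just outside the window, 1189 and 1602 bases from a start. The first of these (chr1:136050664-136051561, 7.63-fold) covered the start of Ascl5 and the second (chrX:7604623-7605481, 15.0-fold) that of Ccdc22. Cacna1f had a further peak inside the gene, over an exon (chrX:7610082-7611126, 1045 bases, 7.36-fold), 2999 bases after its first start and in both pools.

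The T-type (CaV3) pores, which open near rest and drive burst firing, were all marked, 3 of 3, of median width 3256 bases and median enrichment 20.6-fold. Cacna1g had 20.2-fold in pool J and 27.6-fold in pool I (mean 23.9 ± 5.19, SD, n = 2 pools), the largest gap in enrichment between pools in this family. Cacna1h had 21.2-fold and 19.0-fold, and Cacna1i 18.0-fold and 19.2-fold. The widths overlapped: 2983 and 3386 bases for Cacna1g, 3013 and 3320 for Cacna1h, and 3226 and 4032 for Cacna1i, in pools J and I. Within each pool Cacna1i was the widest, but in the replicated list Cacna1g was, with 3552 bases against 3256 for Cacna1i. No order of width among the T-type genes therefore held across the lists.

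The alpha2delta subunits, extracellular proteins that bring calcium channels to the surface and include the targets of gabapentin, were marked in 4 of 4 cases, with a median width of 4499 bases. Cacna2d1 (chr5:15932935-15938973) measured 5121 bases in pool J against 6440 in pool I (mean 5780.5 ± 932.7, SD, n = 2 pools), at 21.9-fold and 22.2-fold. Cacna2d3 measured 5200 and 5196 bases (mean 5198 ± 2.83, SD, n = 2 pools), at 19.4-fold and 15.9-fold. Cacna2d2 was narrower, 2011 and 1932 bases, at 15.1-fold and 14.1-fold, with a weaker second mark at a start 127045 bases downstream (6.55-fold). Cacna2d4, the retinal member, counted as marked only through non-coding transcripts that begin 94243 bases into the gene. That domain (chr6:119327736-119331550; 21.2-fold in pool J, 21.1-fold in pool I) also held the start of Lrtm2, a coding gene on the opposite strand, and the coding start of Cacna2d4 had no peak.

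The cytoplasmic calcium channel beta subunits, which carry the pore to the membrane and set its gating, were all marked as well, 4 of 4, of median width 4500 bases and median enrichment 20.7-fold. Cacnb1, whose protein serves skeletal muscle as well as brain, had the highest enrichment of all channel genes (domain chr11:98017844-98023480): 29.9-fold in pool J, 32.0-fold in pool I and 32.1-fold in the replicated list (mean of the pools 30.9 ± 1.49, SD, n = 2 pools). Its width differed between pools, 4040 bases in pool J against 5551 in pool I. Cacnb3 (chr15:98631704-98637418), a beta subunit common in brain, was nearly constant, 5700 and 5715 bases (mean 5707.5 ± 10.6, SD, n = 2 pools), at 18.8-fold and 16.3-fold. Its domain ran over 2 marked groups of coding starts 3927 bases apart. Cacnb4, the subunit mutated in the lethargic mouse, measured 3237 and 3378 bases at 23.9-fold and 20.1-fold.

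Cacnb2, the main beta subunit of the heart and also present in brain, had peaks at 3 separate places along the gene. The highest lay at the 5′ end (chr2:14603600-14605821), 18.8-fold in pool J and 19.2-fold in pool I. The widest, 2280 bases in pool J against 2764 in pool I, lay at the start of a non-coding transcript 136128 bases downstream, together with the start of the antisense gene Gm10848. The farthest (chr2:14873401-14875893), at coding starts 270567 bases from the first, was 6.82-fold in pool J and 14.9-fold in pool I. Of these places the last differed most between pools, and the first least.

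Of the 8 gamma subunit genes 7 were marked, with widths of 589 to 6055 bases and enrichments of 5.38 to 23.8-fold. Cacng2 (stargazin, lost in the stargazer mouse) had the widest domain of all channel genes in the replicated list (chr15:78116126-78122180, 6055 bases) and in pool J, though Scn8a and Cacna2d1 were wider in pool I. It measured 6066 bases in pool J against 6031 in pool I (mean 6048.5 ± 24.7, SD, n = 2 pools), at 18.1-fold and 21.9-fold. Cacng3, its close relative in cortex, measured 4986 and 5710 bases at 15.7-fold and 20.3-fold. Cacng8, the hippocampal and cortical AMPA receptor partner, measured 4315 and 5081 bases at a lower 11.3-fold and 13.4-fold. The Cacng2 and Cacng8 domains each also held the start of a non-coding gene on the opposite strand (A730060N03Rik and Gm44257). Cacng2, Cacng3 and Cacng8 each lay above the median width of all marked genes in each pool. Each was below the median enrichment of all marked genes in the replicated list and in pool J. In pool I Cacng2 was above it, at 21.9-fold against 20.8-fold.

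Cacng7 was above both medians, with a domain of 2594 and 2754 bases at 22.1-fold in pool J and 24.5-fold in pool I. Cacng4 measured 1626 and 2119 bases at 14.9-fold and 11.1-fold. Cacng5 was the least repeatable member: 546 bases in pool J against 1607 in pool I (mean 1076.5 ± 750.2, SD, n = 2 pools), a ratio of 2.94, at 6.60-fold and 8.74-fold. No other channel gene differed this much in width between pools. Cacng6, a subunit of striated muscle, measured 427 and 696 bases at 5.36-fold and 5.70-fold. The replicated Cacng6 peak (chr7:3423390-3423978) ended 217 bases before the gene's start and covered the start of the long non-coding RNA 3300002P13Rik, on the opposite strand. Cacng1, the gamma subunit of the skeletal muscle calcium channel, had no peak within 39920 bases of its start.

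Grouped by tissue of the encoded channel, all 19 brain genes were marked, beside 65.2% of all protein-coding genes, with a median width of 3552 bases. Of these, 18 were above the genome-wide median and 6 were broad. Genes used in both brain and muscle were likewise all marked, 10 of 10, with a median width of 3449.5 bases. Of the 5 muscle genes 2 were marked, among them Cacng6, and the median enrichment of the brain genes was 18.4-fold. The enrichment of Cacng6, 5.38-fold in the replicated list, was under the lowest of the brain genes, 7.94-fold for Cacng5. Cacng6 was also narrower than every brain gene within each list, at 427 bases against a lowest value of 546 in pool J, 696 against 1607 in pool I, and 589 against 1375 in the replicated list. The 3 sensory neuron genes had 1 marked member, Scn9a, and the 2 retinal genes had 1, Cacna2d4, through the shared domain described above.

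Markers of the same outside tissues were read in the same way. Of 5 skeletal muscle markers 1 was marked (Ckm, 10.6-fold), and of 4 heart muscle markers none in the replicated list or in pool J and 1 in pool I (Tnni3, 3.61-fold). None of 3 retinal markers and 1 of 4 markers of sensory ganglia (Calca, 9.98-fold) were marked. Within cortex, all 6 neuronal and 3 of 3 endothelial markers were marked, with 2 of 3 each for astrocytes, oligodendrocytes, microglia and mural cells. In pool J alone the counts were 0 for microglia and 1 for mural cells, and in pool I alone 1 for microglia and 3 for oligodendrocytes. The part of each cell type in the channel peaks was not tested.

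Accessory subunits were marked in 19 of 20 cases (95.0%) and pores in 14 of 20 (70.0%), beside 65.2% of all protein-coding genes. The share of the pores was thus near that of all genes. At the first start the median ratio of observed to expected CpG was 0.491 for accessory genes and 0.355 for pores, and its part was not tested. Accessory genes also had the wider domains, a median of 3848 bases against 3081.5, and 7 of the 9 broad ones. The difference in median width of 766.5 bases was 1042 in pool J and 394 in pool I. Enrichment showed no stable order: the accessory median of 17.6-fold was below the 19.1-fold of the pores in the replicated list (difference −1.48) and in pool I (−0.37), but above it in pool J (0.60), and also above it (3.31) when the first annotated start alone was read. Among brain genes the 10 accessory members had a median width of 5116 bases and the 9 pores 3256. Sodium channel genes were marked in 10 of 14 cases (71.4%, near the share of all genes), with a median of 3002 bases and 15.4-fold. Calcium channel genes were marked in 23 of 26 (88.5%), with 3552 bases and 19.2-fold.

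The pools gave similar values for most members. Of the 33 marked genes 30 had widths within 1.5-fold between pools, beside 95.2% of all genes marked in both. The exceptions were Cacng5, Cacng6 (1.63) and Scn8a (1.60), all wider in pool I. Domains were wider in pool I for 21 of 33 channel genes, with a median ratio of pool I to pool J of 1.06, close to the 1.07 over all genes. The pool lists themselves differed in size, 21573 peaks in pool J and 24508 in pool I, against 25446 in the replicated list, and the numbers of reads behind them are unknown.

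**Figure D3:**
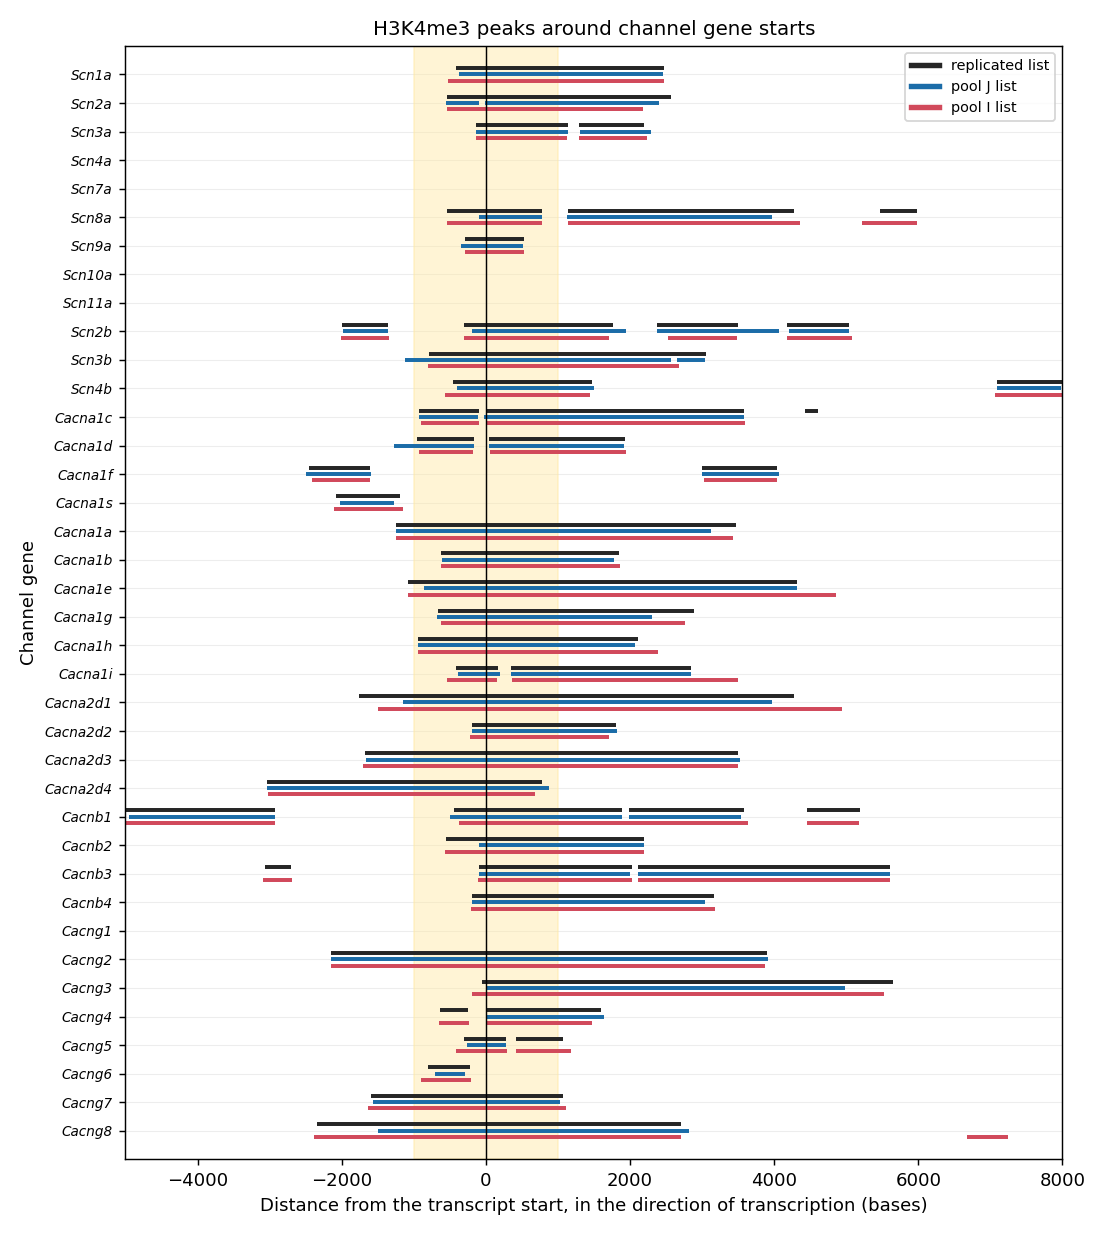
Peaks from 5000 bases before to 8000 after the most upstream start inside the widest domain of each marked channel gene (the nearest start where none lay inside), or the first start of an unmarked one, oriented along transcription (black, replicated list; blue, pool J; red, pool I; shaded, the window of 1000 bases either side). The bars reach farther to the right of the start than to the left in most marked genes.

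Reach was measured from the most upstream annotated start inside the domain, or from the nearest start where none lay inside. Where a domain held several starts, this choice by itself added to the downstream side. Measured in this way, the domains lay mostly downstream, along the transcribed body. In 30 of 33 marked channel genes the domain reached farther downstream, a median of 2701 bases against 617 upstream. Over all marked genes 84.8% did so, with medians of 1348 downstream and 605 upstream. By this measure the greater median width of channel domains lay on the downstream side, while their upstream reach was close to that of all marked genes. How much the choice of start added was not tested.

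Channel genes have many annotated starts. Starts up to 1000 bases apart were taken as a group, which gave 139 groups over the 40 genes, and 49 of these groups were marked. Groups that begin at least 1 coding transcript were marked in 40 of 79 cases and groups of non-coding transcripts alone in 9 of 60. There were 11 genes with more than 1 marked group. Groups lying close together can share a peak, as at Cacng8 and Cacnb3, so these counts are not of separate peaks. The same counts over the start groups of all protein-coding genes were not made.

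In 4 calcium channel genes the first annotated start was unmarked and the mark lay far inside, Cacna2d4 among them. The Cacna1a peak lay at coding starts 26924 bases after the first start, that of Cacna1c 87845 bases after it, and that of Cacna1d 137969 bases after it. The ratio of observed to expected CpG in the window was 0.746, 0.860 and 0.748 at the marked starts, against 0.182, 0.298 and 0.312 at the unmarked first ones. Cacna1a had a further marked start of a non-coding transcript near its 3′ end, 250551 bases from the first, with 10.1-fold in pool J and 11.1-fold in pool I and a CpG ratio of 0.858. Cacna1e also had its highest peak inside, 19.2-fold, with a weaker one of 11.4-fold at a non-coding first start; the former lay at a coding start 158145 bases downstream. Cacnb4 had a second marked coding start 118264 bases downstream, at 8.11-fold in pool J and 11.7-fold in pool I.

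**Figure D4:**
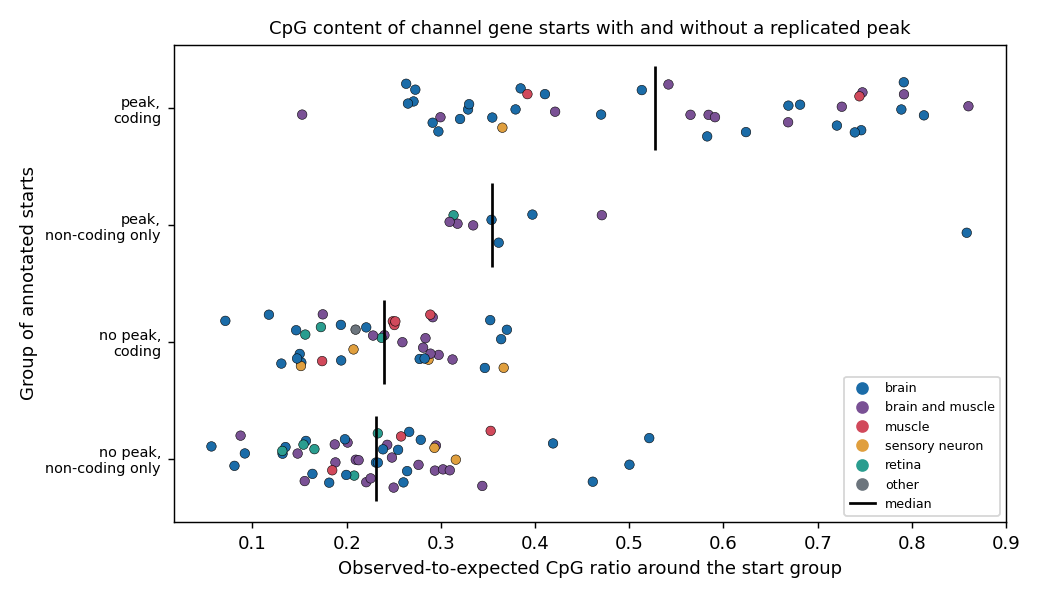
Ratio of observed to expected CpG in the window around each of the 139 groups of starts, split by whether a replicated peak was present and by whether any coding transcript begins there (points, groups; bar, median). Marked groups lie higher as a whole, but they overlap the unmarked ones.

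The CpG ratio separated marked from unmarked starts in part. Its median was 0.421 over marked groups and 0.233 over unmarked groups. At a ratio of 0.4 or more 26 of 30 groups were marked, and under it 23 of 109. The same counts over the start groups of all protein-coding genes were not made, so these describe the channel genes without a background. Over all genes the marked share also rose with the ratio at the first start, from 3.83% in the poorest decile to 98.7% in the richest. At the first start the channel genes had a lower median ratio than all genes, 0.397 against 0.474, with 0.470 for the brain class and 0.258 for the muscle class. By this ratio 24 of the 40 members fell in the CpG-poorer 5 deciles of all protein-coding genes, and 17 of them were marked. From the poorest decile up these held 0, 3, 3, 10 and 8 members, of which 0, 1, 1, 8 and 7 were marked, beside 3.83%, 12.4%, 23.0%, 47.2% and 81.6% of all genes in the same deciles. The other 16 members were all marked, beside 96.7% of all genes in the richer deciles. Since a gene could be marked at any start, Cacna1a, Cacna1c, Cacna1d and Cacna2d4 counted as marked here although the first start was not.

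Several neuronal genes are known targets of REST, a repressor that binds the repressor element 1 (RE1) and silences them outside neurons. Both strands of every start window were searched for TTCAGCACC and GGACAG with 2 free bases between them, allowing up to 2 mismatches. A match was found in 5 of 40 channel genes (12.5%), beside 564 of 21938 protein-coding genes (2.57%), and in the first start's window alone in 3 of 40 (7.5%), beside 301 (1.37%). Genes with more starts had more sequence searched. The matches are shown because they place the element relative to the peaks. Capitals mark bases that match the motif and lower case marks the 2 free positions and mismatches.
Scn2a (chr2:65619964-65619980, plus strand): TTCAGCACCacGGACAG
Cacna1b (chr2:24762083-24762099, plus strand): gTCAGCACCacGGACAG
Scn3b (chr9:40269744-40269760, minus strand): cTCAGCACCacGGACAG
Cacng3 (chr7:122670946-122670962, plus strand): TTCAGCACCacGGACct
Cacna1d (chr14:30049516-30049532, plus strand): TTCAGaACCtgGGACAG

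Scn2a held an exact match, as did 40 of all protein-coding genes (0.182%). It lay 807 bases before the first start and outside the peak, which began nearer the start. Cacna1b and Scn3b each had a match with 1 mismatch, 948 and 57 bases after a start. Cacng3 had one with 2 mismatches, 445 bases before a later start of the gene and downstream of its first start. These last 3 lay inside replicated peaks. The Cacna1d match, with 1 mismatch, lay 717 bases after an internal start that had no peak. Each is a match of letters and not a measured binding site.

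**Figure D5:**
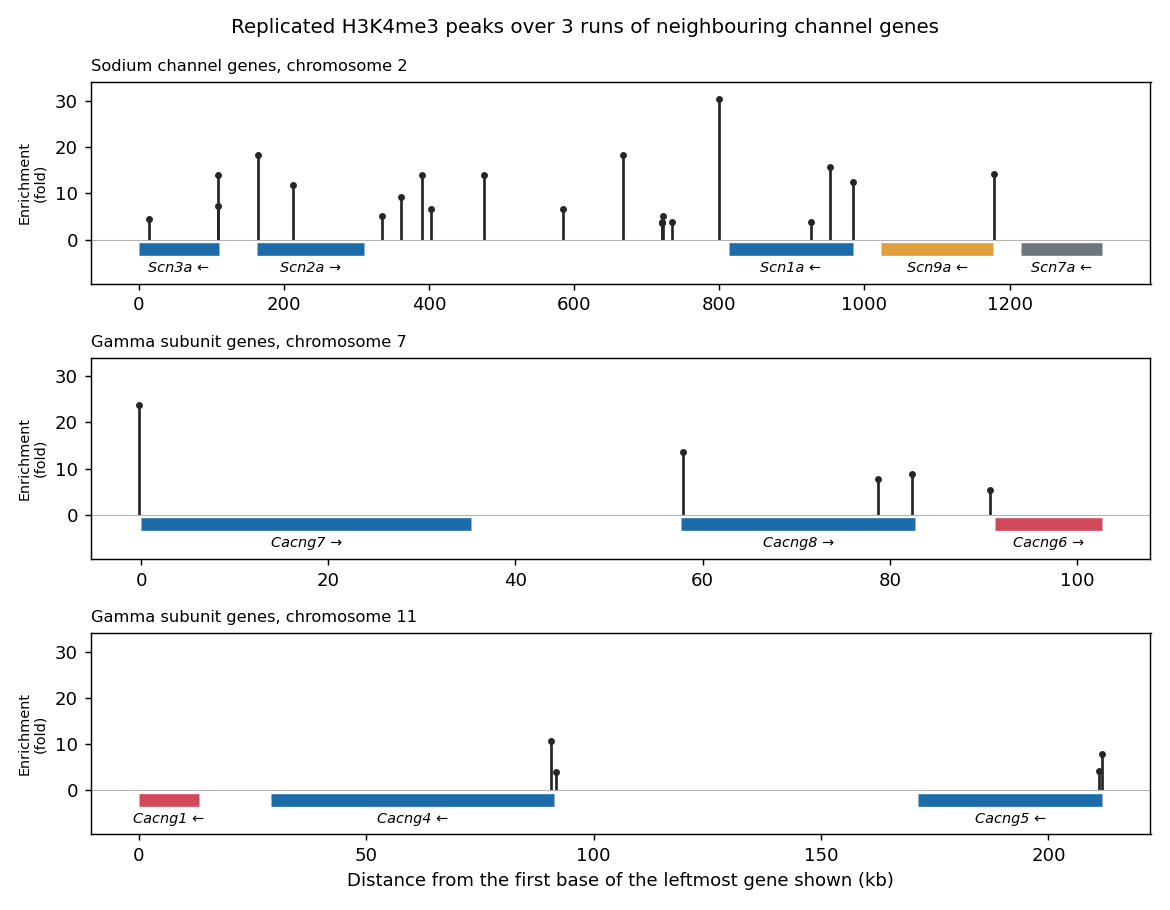
Replicated peaks (stems, authors' enrichment in fold over control) along 3 chromosomal runs of channel genes (bars, with arrows for the direction of transcription), by distance in kb from the first base of the leftmost gene. Peaks stand at the starts of the brain genes, and Scn7a and Cacng1 have none. Other genes within the runs are not drawn, and peaks between the bars are not assigned to channel genes.

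Many channel genes sit beside their paralogs, so that marked and unmarked copies share a neighbourhood. On chromosome 2 the run Scn3a, Scn2a, Scn1a, Scn9a and Scn7a spans 1328 kb, with the first 4 marked and Scn7a not. Its highest peak, 30.5-fold, lay between Scn2a and Scn1a and outside both genes (chr2:66255735-66257676). Other genes in that interval are not described here, so the peak is not assigned to a channel gene. On chromosome 7 Cacng7, Cacng8 and Cacng6 lie within 102.7 kb and were all marked, at 23.8, 13.5 and 5.38-fold in the replicated list. On chromosome 11 Cacng1, Cacng4 and Cacng5 lie within 211.8 kb, and the muscle gene Cacng1 was the unmarked one.

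Partner genes outside the naming rule were read beside the channels. Their counts stand beside the 65.2% of all protein-coding genes marked in the replicated list. The partner lists were not matched for CpG ratio, with which the marked share over all genes rose. The FGF homologous factors (Fgf11, Fgf12, Fgf13 and the like), which bind sodium channel tails, were marked in 4 of 4 cases, with enrichments of 11.3 to 26.4-fold. Proteins that anchor sodium channels at the axon initial segment (Ank2, Ank3, Sptbn4 and others) were marked in 5 of 5 cases at 15.7 to 25.4-fold. The sodium leak channel Nalcn and partners such as Unc79 and Unc80 were marked in 4 of 4 cases at 18.3 to 22.0-fold. The small GTPases that inhibit calcium channels (Rem1, Rem2, Rrad and a further one) were all marked but lower, at 4.63 to 14.8-fold.

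The ryanodine receptors, which release calcium from internal stores, were marked in 3 of 3 cases with unequal strength. The brain and heart gene Ryr2 had a domain of 4364 bases at 19.2-fold, and the skeletal muscle gene Ryr1 one of 307 bases at 4.46-fold. Of the Stac adaptors Stac and Stac2 were marked and Stac3, the adaptor of skeletal muscle, was not. Of 8 genes of the sperm calcium channel 3 were marked: Catsper2 at 26.7-fold, Catsperd at 27.4-fold and Catsperg1 at 5.84-fold. Each of these counts was the same in the single-pool lists.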

How the data were processed

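H3K4me3 ChIP-seq peaks of 4 libraries (2 of pool J, 2 of pool I) were used, grouped by the pool in the labels. The authors deposited 4 peak lists on mm10, per the labels and text files supplied with them: 1 per pool, 1 on pooled reads and 1 replicated list. The aligner, caller and read numbers were not given in the sources used here, so depth is unknown. Deposited enrichment is a ratio, taken as fold over control and used to describe and rank peaks within a list. Deposited −log10 q values served as filters only.

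Starts were those of GENCODE M21, with 21938 protein-coding genes. A peak within 1000 bases of a start marked the gene. Peaks up to 1000 bases apart were merged, a gene took its widest domain and highest peak (which can lie at different starts, as for Scn2a and Cacnb2), and the widest 5.0% were broad. CpG ratio is the observed count over that from C and G content in the window of the first start or the group of starts. Python 3.11.15, pandas 2.3.3, numpy 2.4.6 and pysam 0.24.0 were used, and overlap counting was tested on simulated data. With 1 list per pool no test was made. The spread is the SD of the 2 pools. Members, tissue classes, partner lists (the FGF, anchor, leak, sperm, GTPase, Stac and ryanodine genes) and tissue markers were chosen with earlier results of these data known. All members were named except 2 that are not reported here by name, though they stay in the counts, and from partner lists those against the majority and up to 3 others. Fam155b found no match by symbol. Alternatives changed the window, starts, filter, merging, overlap and list.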

Additional observations from a re-analysis of the deposited data

How the results depend on the processing

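The summary values were recomputed 128 times, and 117 of these left the value within the spread between pools or, for counts, within 1.5-fold. This is a loose measure, since the single-pool lists that set the spread were among the settings. The accessory minus pore difference in width, 766.5 bases with a spread of 458.2, counted as unchanged at 391.5 bases (overlapping peaks alone merged). Marked channel genes were 33 in each single pool, in the pooled-reads list, with 500-base windows, a 200-base overlap and both −log10 q filters (5 and 10). Under these settings 62.3% to 65.4% of all protein-coding genes were marked. Marked channel genes were 32 with coding transcripts alone (without Cacna2d4), beside 64.3% of all protein-coding genes. With the 5′-most start alone there were 29 (also without Cacna1a, Cacna1c and Cacna1d), beside 61.6% of all. With windows of 2500 bases there were 35 (adding Cacna1f and Cacna1s), beside 66.2% of all. The median width of 3363 bases was 3051 with the 5′-most start alone, against 2093 for all marked genes. It was also 3051 when overlapping peaks alone were merged, against 1977 for all marked genes. In the pooled-reads list it was 3552, against 2123.5, and in single pools 3226 to 3386, against 2026 to 2193.5. Broad domains numbered 5 with merging up to 2500 bases, 7 to 8 in single pools, and 8 and 7 with the −log10 q filters of 5 and 10. With the 5′-most start alone the median enrichment was 17.1-fold, the accessory minus pore difference was 1442 bases in width and 3.31 in enrichment (reversed from −1.48), and the brain minus muscle difference in enrichment was 11.4. In single pools the accessory minus pore difference was 394 to 1042 bases in width and −0.37 to 0.60 in enrichment, so its sign rests on the list. The causes of these shifts were not tested. Of 391 member widths under the alternatives 344 were within 1 SD of the pools. No paired analysis was possible because each pool has 1 peak list and the shared technical replicate numbers carry no values of their own. Depth limits the unmarked calls to not detected in these lists.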

Other observations

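Peaks inside channel genes and outside every start window numbered 22, in 12 of the 40 genes, with enrichments of 2.14 to 24.5-fold (median 4.70), and 14 of them were in each of the single-pool lists. They are not all separate from the promoter marks, since those within the widest domains of Cacna1c, Cacnb1, Scn2b and Scn3a were already part of the domain widths. The highest of the 22 lay in introns at or near the starts of genes on the opposite strand. Cacna1c held a peak of 1604 bases and 24.5-fold (chr6:119174806-119176409) at or near the start of Dcp1b. Cacna1d held one of 2101 bases and 18.9-fold (chr14:30478943-30481043) at or near the start of Dcp1a. Dcp1a and Dcp1b encode mRNA decapping proteins, and these paralogs thus share the same antisense position within 2 paralogous L-type genes, each close to the channel gene's own first start, 10412 bases after it in Cacna1d and 20009 in Cacna1c.

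An intronic peak of Scn4b (chr9:45145481-45146433, 953 bases, 10.3-fold) and exonic peaks of Cacng8 (chr7:3410992-3412468 at 7.83-fold and chr7:3414852-3415862 at 8.86-fold) were in both pools. The second Cacng8 peak covered the start of the annotated miRNA gene Gm23450. Scn8a held 4 such peaks, and 1 of them, over an exon (chr15:100983427-100984245, 5.77-fold), was in both pools.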
